A study of Homo sapiens with 12 samples.

Results

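The classic YAP/TAZ target genes described here are 10 genes, CCN1, CCN2, THBS1, AXL, CRIM1, FJX1, NUAK2, AJUBA, ARHGAP29 and ANKRD1. They were chosen by gene symbol from the 46931 genes of the expression table, and each had 1 entry on an assembled chromosome. MCF10A, an immortalised line of human mammary epithelial cells labelled as wild type, was studied in 4 groups of 3 libraries. In the group siYap Taz XMU, 11 nM siRNA sets directed at YAP and TAZ were followed after 48 h by XMU-MP1, an inhibitor of MST1/2, at 5 µM for 6 h. The group siYap Taz DMSO also received 11 nM siRNA sets directed at YAP and TAZ, followed by DMSO, the solvent. The groups siC XMU and siC DMSO received control siRNA at 22 nM, followed by XMU-MP1 and by DMSO. All 4 groups were therefore transfected, none is an untouched culture, and which siRNA set a library received is not stated. Per its title, the series is about a non-canonical Hippo pathway and deltaNp63, a form of p63.

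Hippo signalling runs from the kinases MST1 and MST2 to LATS1 and LATS2. The LATS kinases phosphorylate YAP, the product of YAP1, and TAZ, the product of WWTR1, and keep these coactivators out of the nucleus. Unphosphorylated YAP and TAZ bind the TEAD transcription factors and switch on genes for matrix proteins, receptors and regulators of the cytoskeleton. Several of these targets, such as AJUBA and NUAK2, act back on the pathway. An MST1/2 inhibitor relieves YAP and TAZ of this brake, and the knockdown lowers their RNA. Each comparison asks how far a target gene follows.

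Depth was 8243351 to 67953633 counts per library, and polyadenylated RNA was sequenced in stranded paired-end libraries. Library c of siYap Taz XMU stood apart, with the lowest depth, ribosomal RNA at 35% of counts against 1.02 to 8.35% in the other 11 libraries, and the gene SLCO5A1 at 12.6% against 0.233 to 5.72%. Mitochondrial ribosomal RNA made up 26.4% of its counts and nuclear 8.52%, and the mitochondrial part was the larger in every library. Genes with counts numbered 15135 there and 17950 to 20704 elsewhere. Results that rest on it are given with and without it. Of 7 basal epithelial markers, 7 had counts in every library, and they summed to 2510 to 7970 FPKM in siYap Taz XMU, 2890 to 6720 in siYap Taz DMSO, 2270 to 3110 in siC XMU and 2880 to 3360 in siC DMSO. Their levels moved with the groups. KRT17 had 2200 to 5560 FPKM in siYap Taz DMSO against 402 to 561 FPKM in siC DMSO, KRT5 had 473 to 931 FPKM against 2120 to 2510 FPKM in the same groups, and TP63 had 0.341 to 0.613 FPKM in siC XMU against 3.52 to 4.50 FPKM in siC DMSO. The 4 luminal markers summed to 163 to 587 FPKM in siYap Taz XMU and 481 to 542 FPKM in siYap Taz DMSO, against 1790 to 2310 FPKM in siC XMU and 2120 to 2390 FPKM in siC DMSO. Nearly all of this was KRT8 and KRT18. GATA3 had 5.19 to 8.76 FPKM in siYap Taz DMSO, against 5.88 to 6.92 FPKM in siC DMSO. In XMU-MP1 it had 0.822 to 2.28 FPKM in siYap Taz XMU, against 4.94 to 6.76 FPKM in siC XMU. ESR1 was at most 0.15 FPKM. The 5 fibroblast markers summed to 3.34 to 12.1 FPKM in siYap Taz XMU, 3.83 to 9.50 in siYap Taz DMSO, 2.67 to 4.50 in siC XMU and 2.06 to 4.28 in siC DMSO. The defining fibroblast gene COL1A2 was at 3.58 FPKM in library c of siYap Taz XMU and at or below 0.456 FPKM in every other library. The 4 leukocyte markers summed to 9.60 to 25.7 FPKM in siYap Taz XMU, 12.8 to 25.0 in siYap Taz DMSO, 4.57 to 9.16 in siC XMU and 24.8 to 35.3 in siC DMSO. Most of this was CD14, at 9.19 to 25.6 FPKM in siYap Taz XMU, 12.8 to 25.0 FPKM in siYap Taz DMSO, 4.57 to 9.16 FPKM in siC XMU and 24.8 to 35.3 FPKM in siC DMSO, while PTPRC was at 0 in 9 of the 12 libraries. The 3 endothelial markers summed to at most 0.863 FPKM. The part of these differences in the results was not tested.

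The promoter windows of the genes show matches to the TEAD motif close to the transcription start only. Sites further away were not searched, and binding was not measured. RefSeq (GRCh38.p14) gave windows from 250 bases before to 50 bases after the transcription start for 8 of the 10 genes, as 11 windows. CCN1 and CRIM1 had no entry. The letters GGAATG, the core of the TEAD motif, were searched on both strands. The 4 windows below are printed because they contrast the genes of the results: CCN2 holds the most matches, THBS1 had the largest called fall after the knockdown, FJX1 fell in all 4 group comparisons and holds no match, and NUAK2 holds matches but was not called after the knockdown in DMSO. Capitals mark GGAATG or, for a match on the other strand, its reverse complement CATTCC. The windows are chr6:131951323-131951622 on the minus strand for CCN2, chr15:39580829-39581128 on the plus strand for THBS1, chr1:205321696-205321995 on the minus strand for NUAK2 and chr11:35618210-35618509 on the plus strand for FJX1, each written 5′ to 3′ along its gene.
CCN2: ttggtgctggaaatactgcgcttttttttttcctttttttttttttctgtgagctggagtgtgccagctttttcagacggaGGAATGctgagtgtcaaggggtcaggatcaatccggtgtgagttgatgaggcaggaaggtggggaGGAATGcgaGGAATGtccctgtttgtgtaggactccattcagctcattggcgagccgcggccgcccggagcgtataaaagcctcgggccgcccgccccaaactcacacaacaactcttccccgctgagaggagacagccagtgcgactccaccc
THBS1: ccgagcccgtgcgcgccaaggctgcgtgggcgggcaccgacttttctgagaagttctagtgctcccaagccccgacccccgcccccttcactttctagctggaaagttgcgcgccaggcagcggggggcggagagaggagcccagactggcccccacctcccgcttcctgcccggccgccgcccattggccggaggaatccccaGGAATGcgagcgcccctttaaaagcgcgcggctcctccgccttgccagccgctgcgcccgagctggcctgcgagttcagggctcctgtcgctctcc
NUAK2: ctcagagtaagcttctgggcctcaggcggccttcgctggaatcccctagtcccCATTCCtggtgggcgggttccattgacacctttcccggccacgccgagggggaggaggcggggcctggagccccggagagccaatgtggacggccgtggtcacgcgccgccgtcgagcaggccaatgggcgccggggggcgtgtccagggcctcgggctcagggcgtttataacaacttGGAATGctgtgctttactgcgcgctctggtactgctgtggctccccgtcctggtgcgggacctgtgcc
FJX1: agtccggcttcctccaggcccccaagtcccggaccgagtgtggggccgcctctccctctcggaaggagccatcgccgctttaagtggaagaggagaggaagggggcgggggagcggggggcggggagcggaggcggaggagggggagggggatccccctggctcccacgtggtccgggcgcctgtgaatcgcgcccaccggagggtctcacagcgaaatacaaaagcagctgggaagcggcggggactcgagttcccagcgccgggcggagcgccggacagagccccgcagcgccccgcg
CCN2 had 3 matches, which start at -169, -104 and -95 from the transcription start. NUAK2 had 2, at -197 on the other strand and at -18. THBS1 had 1, at -46, close to the start. Among the windows not printed, ANKRD1 had 2 matches, and the second listed starts of AXL and AJUBA had 1 each. In all, 6 of the 8 genes held at least 1 match, against 16.7% of 27305 genes with windows. At least 3 matches were found in 0.128% of 35116 windows, at least 2 in 1.37% and at least 1 in 14%. The AP-1 motif TGANTCA was found in ANKRD1 among these genes, against 9.37% of the 27305 genes and 7.71% of all windows. The CArG box, the motif of serum response factor, was found in 0 of the 8 genes, against 1.6% of the 27305 genes and 1.29% of windows. AP-1 and CArG matches were also searched on both strands, and no match of 1 motif overlapped that of another in these genes.

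**Figure D1:**
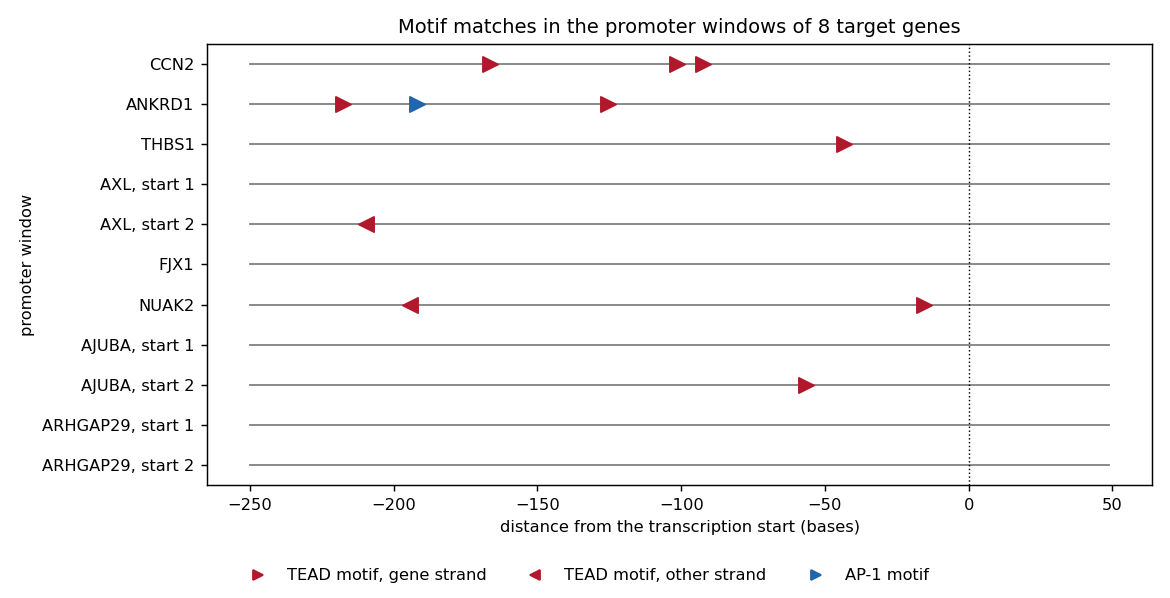
Motif matches in the promoter windows of 8 target genes (rows, with each listed start of a gene on its own line) by distance from the transcription start in bases. Red triangles mark GGAATG and point along the strand of the match, and the blue triangle marks TGANTCA; CCN2 has 3 red marks, ANKRD1 and NUAK2 have 2 each, and FJX1 and ARHGAP29 have none.

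Levels can be compared between genes as FPKM. In siC DMSO, THBS1 had the highest mean level of the 10 genes, at 59.9 FPKM, followed by CCN1 at 32.3, AJUBA at 25.9 and FJX1 at 22.7 FPKM. AXL had 16.7 FPKM, CRIM1 7.29, ARHGAP29 5.75, NUAK2 4.86 and CCN2 3.04 FPKM. ANKRD1 stood at 0.101 FPKM, so it was close to silent in these cells. XMU-MP1 changed that order, since in siC XMU CCN1 and CCN2 led at 97.8 and 80.9 FPKM and THBS1 followed at 21.6 FPKM. After the knockdown in DMSO, AXL at 5.47 FPKM and NUAK2 at 4.62 FPKM were the highest, and the other genes lay at or below 2.88 FPKM. In siYap Taz XMU, CCN1 led again at 12.3 FPKM. From here on levels are CPM, counts scaled to library size after TMM normalization, which compare libraries but not genes. A gene is called where its adjusted p from edgeR's quasi-likelihood test over 18143 genes lies under 0.05. All 10 genes passed the filter on low counts.

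**Figure D2:**
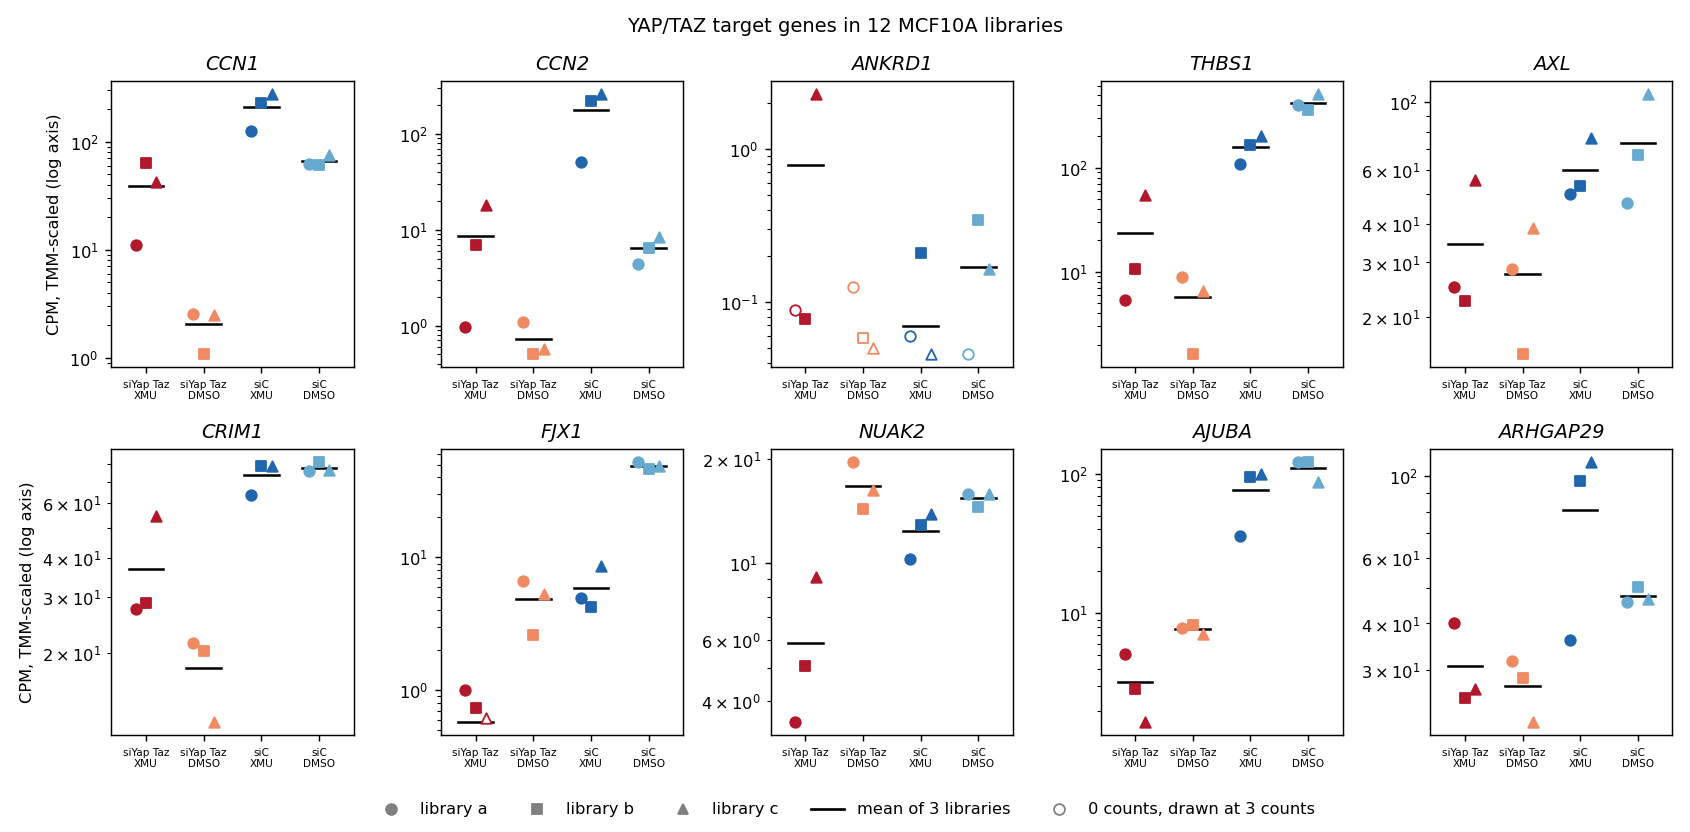
CPM (TMM-scaled, log axes that differ between panels) of the 10 target genes in the groups siYap Taz XMU, siYap Taz DMSO, siC XMU and siC DMSO, with 1 point per library, bars at the mean of 3 libraries and open points for libraries with 0 counts drawn at 3 counts. All 3 siYap Taz DMSO libraries lie below all 3 siC DMSO libraries for CCN1, CCN2, THBS1, AXL, CRIM1, FJX1, AJUBA and ARHGAP29. The same holds for 27.9% of all genes tested. CCN2 lies highest in siC XMU.

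The siRNA targets were checked first. YAP1 had 6.63, 3.81 and 5.39 CPM in libraries a, b and c of siYap Taz XMU and 12.6, 9.09 and 7.84 CPM in siYap Taz DMSO, against 132, 135 and 142 CPM in siC XMU and 201, 223 and 193 CPM in siC DMSO. WWTR1 had 2.11, 1.24 and 0 CPM in siYap Taz XMU and 4.30, 4.47 and 3.66 CPM in siYap Taz DMSO, against 56.9, 60.3 and 56.0 CPM in siC XMU and 34.6, 24 and 38.2 CPM in siC DMSO. For the count of 0 in library c, the floor of 3 counts corresponds to 0.622 CPM. Both genes were thus low in every siYap Taz library, by a log2 fold change of -4.39 (SE 0.24) for YAP1 and -2.96 (SE 0.47) for WWTR1 in DMSO, and of -4.70 (SE 0.25) and -5.43 (SE 0.54) in XMU-MP1, with edgeR adjusted p of at most 0.000511. Both were lower still in siYap Taz XMU than in siYap Taz DMSO, with log2 fold changes of -0.90 for YAP1 (SE 0.22, adjusted p = 0.0221 by edgeR) and -1.62 for WWTR1 (SE 0.48, adjusted p = 0.0463 by edgeR). Of 12 fits that each left out 1 library, 2 lost the YAP1 call (adjusted p = 0.0716 without library a of siYap Taz DMSO and 0.0615 without library b of siYap Taz XMU), and 10 lost the WWTR1 call (adjusted p 0.0597 to 0.113). Among the partners of YAP and TAZ, TEAD4 fell by 3.25 and TEAD1 by 0.98 on the log2 scale after the knockdown in DMSO, TEAD3 rose by 2.04, and TEAD2 did not pass the test (-0.75, adjusted p = 0.075 by edgeR). TEAD1, TEAD3 and TEAD4 went the same way after the knockdown in XMU-MP1, by -1.49, 1.58 and -2.61.

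The knockdown in DMSO lowered 7 of the 10 target genes and raised 0, where 16% of all genes tested were called lower and 16.1% higher. THBS1, CCN1, AJUBA, FJX1 and CCN2 fell most, by 74.7-fold, 32.7-fold, 14.2-fold, 10.2-fold and 9.36-fold, while the kinase gene NUAK2 kept its level within the spread of the libraries. The median log2 fold change of the 10 genes was -3.29, or -2.67 with ANKRD1, which had 0 counts in all 3 siYap Taz DMSO libraries, at the bound set by a floor of 3 counts per library, against 0.02 for all genes. Ribosomal RNA took a larger share of counts after the knockdown within every letter, at 8.35, 3.64 and 1.86% in siYap Taz DMSO against 2.15, 1.05 and 1.32% in siC DMSO, and at 5.38, 2.65 and 35% in siYap Taz XMU against 2.52, 1.21 and 1.02% in siC XMU. This ribosomal RNA was mostly mitochondrial in every library, and its part in the knockdown results was not tested. In bulk RNA, fewer cells that express a gene and less RNA per cell cannot be told apart.

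Of the matrix genes, THBS1 (gene ID 7057, chr15:39581079-39599466, plus strand, GRCh38.p13 as all gene positions here) codes for thrombospondin 1, a secreted glycoprotein. It had 8.80, 1.62 and 6.58 CPM in siYap Taz DMSO, against 396, 355 and 507 CPM in siC DMSO. The groups lie far apart, with a log2 fold change of -6.22 (SE 0.89, adjusted p = 0.000256 by edgeR). THBS1 overlaps FSIP1 on the opposite strand, which had 620 counts over all 12 libraries. CCN1 (gene ID 3491, chr1:85580761-85583950, plus strand), a matricellular protein also known as CYR61, had 2.54, 1.08 and 2.48 CPM in siYap Taz DMSO, against 61.6, 61.3 and 75.4 CPM in siC DMSO. It fell 32.7-fold (log2 -5.03, SE 0.61, adjusted p = 8.04e-05 by edgeR), and the groups lie far apart. CCN2 (gene ID 1490, chr6:131948176-131951372, minus strand), the related protein CTGF, had 1.08, 0.503 and 0.562 CPM in siYap Taz DMSO, against 4.39, 6.43 and 8.43 CPM in siC DMSO, where it was already low. Its log2 fold change of -3.23 (SE 0.88, adjusted p = 0.014 by edgeR) was not called without library b (adjusted p = 0.0606) or without library c (0.0572) of siYap Taz DMSO, with voom (0.129) or on log2(FPKM + 1) (0.0583).

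The membrane proteins fell less. CRIM1 (gene ID 51232, chr2:36355778-36551135, plus strand), a transmembrane protein that binds bone morphogenetic proteins, had 21.5, 20.2 and 12 CPM in siYap Taz DMSO, against 76.2, 81.2 and 76.3 CPM in siC DMSO. It fell by 2.12 on the log2 scale (SE 0.29, adjusted p = 0.000167 by edgeR). The siYap Taz DMSO libraries lie wholly lower, as for 27.9% of genes tested. AXL (gene ID 558, chr19:41219223-41261766, plus strand), a receptor tyrosine kinase bound by GAS6, had 28.6, 15.1 and 38.9 CPM in siYap Taz DMSO, against 46.7, 67.3 and 106 CPM in siC DMSO. Its values spread widely within both groups, and its log2 fold change of -1.41 (SE 0.43, adjusted p = 0.0247 by edgeR) was lost without library c of siC DMSO (adjusted p = 0.112), library a (0.0623) or library b (0.0912) of siYap Taz DMSO.

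Among the regulators inside the cell, AJUBA (gene ID 84962, chr14:22971177-22982551, minus strand), a LIM-domain protein that binds and restrains LATS kinases, had 7.88, 8.28 and 7.08 CPM in siYap Taz DMSO, against 122, 121 and 87.2 CPM in siC DMSO. The 14.2-fold fall (log2 -3.83, SE 0.42, adjusted p = 4.1e-05 by edgeR) had the smallest adjusted p of the 10 genes. FJX1 (gene ID 24147, chr11:35618460-35620865, plus strand) is the human counterpart of a Drosophila Golgi kinase that modifies the cadherins Fat and Dachsous upstream of Hippo. It had 6.63, 2.61 and 5.29 CPM in siYap Taz DMSO, against 52.3, 46.5 and 48.5 CPM in siC DMSO, a fall of 3.35 on the log2 scale (SE 0.51, adjusted p = 0.000373 by edgeR). NUAK2 (gene ID 81788, chr1:205302059-205321745, minus strand), a kinase of the AMPK family, had 19.6, 14.3 and 16.3 CPM in siYap Taz DMSO, against 15.8, 14.5 and 15.8 CPM in siC DMSO. These libraries overlap, and the difference of 0.12 (SE 0.31, adjusted p = 0.805 by edgeR) was within their spread and was -0.07 on log2(FPKM + 0.1).

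ARHGAP29 (gene ID 9411, chr1:94168905-94275068, minus strand), which switches off the GTPase RhoA, had 31.6, 28.5 and 21.7 CPM in siYap Taz DMSO, against 45.6, 50.3 and 46.7 CPM in siC DMSO. All 3 values lie below those of siC DMSO, as they did for 27.9% of genes tested, yet the log2 fold change of -0.80 (SE 0.34, adjusted p = 0.0941 by edgeR) was not called. It was called without library a of siC XMU (adjusted p = 0.0166) and in a fit of the compared groups only (0.0115). Its antisense neighbour ARHGAP29-AS1 had 26 counts over all libraries. ANKRD1 (gene ID 27063, chr10:90912096-90921087, minus strand), an ankyrin-repeat cofactor best known from heart and skeletal muscle, had 0 counts in all 3 siYap Taz DMSO libraries, against 0, 27 and 12 counts in siC DMSO. No fold is given for it, since 8 of the 12 libraries were at or near the floor of 3 counts. The calls of CCN1, THBS1, CRIM1, FJX1 and AJUBA held in all 21 alternative fits.

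**Figure D3:**
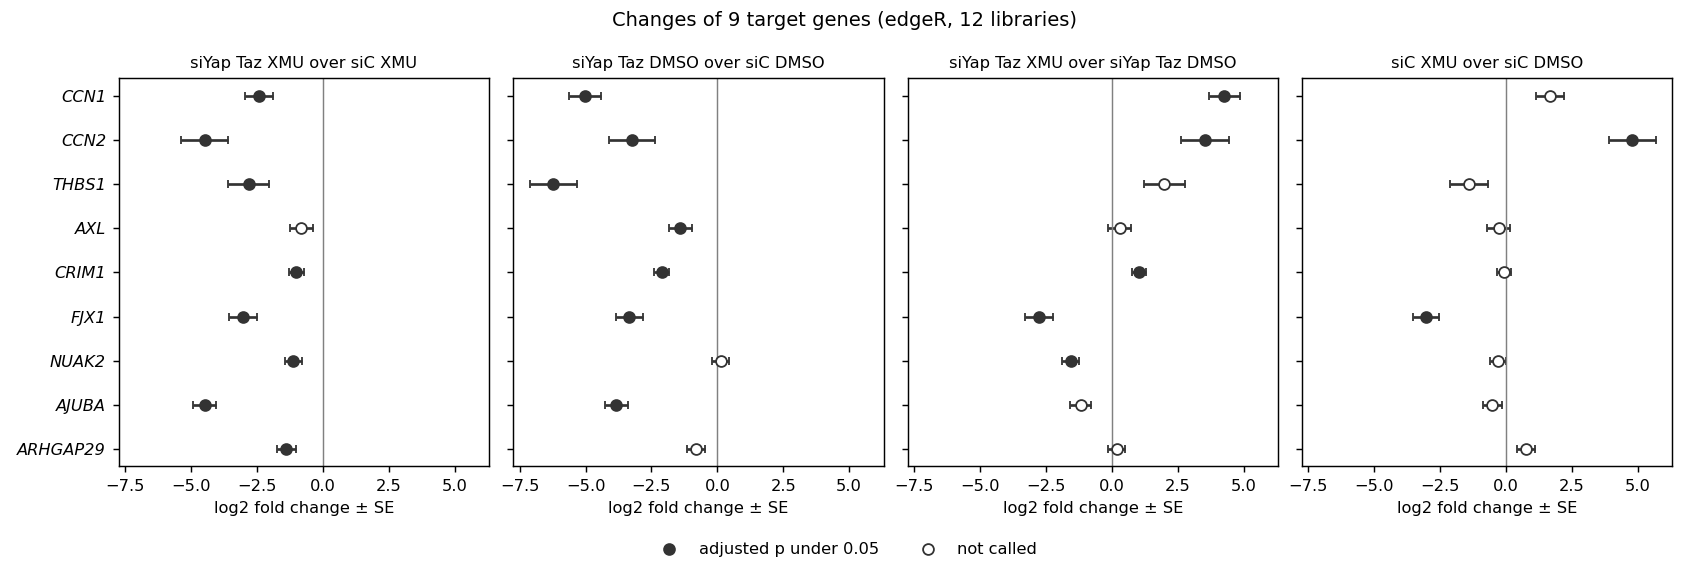
Log2 fold changes (x axis, ± SE, edgeR on 12 libraries) of 9 target genes in the comparisons siYap Taz XMU over siC XMU, siYap Taz DMSO over siC DMSO, siYap Taz XMU over siYap Taz DMSO and siC XMU over siC DMSO, with filled points for adjusted p under 0.05. Filled points lie below 0 for 8 genes in the first panel and 7 in the second, while the drug panels hold filled points on both sides; ANKRD1 is left out.

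After the knockdown in XMU-MP1, 8 of the 10 target genes were called lower and 0 higher, where 18.6% of all genes tested were called lower and 17.7% higher. AJUBA and CCN2 fell most, both 22.4-fold, and NUAK2 and ARHGAP29 were called in this background. The median log2 fold change of the 10 genes was -1.91, or -2.44 without ANKRD1, against 0.04 for all genes. Without library c of siYap Taz XMU the count was 9 lower, without library b of that group it was 5, and without library a it was 6. Over all genes tested, these fits called 3602 of 19211, 3123 of 18984 and 3241 of 19071 lower.

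CCN2 had 0.968, 6.94 and 18.0 CPM in siYap Taz XMU, against 51.5, 219 and 261 CPM in siC XMU. Both groups spread from a low library a to high libraries b and c, but they do not overlap. Libraries lay wholly below in 25.9% of all genes tested. The log2 fold change of CCN2 was -4.49 (SE 0.88, adjusted p = 0.00212 by edgeR). It was -5.47 without library c and -3.90 without library a of siYap Taz XMU. CCN1 had 11.0, 63.0 and 42.5 CPM in siYap Taz XMU, against 125, 229 and 276 CPM in siC XMU. It fell by 2.44 on the log2 scale (SE 0.53, adjusted p = 0.00403 by edgeR), and by 3.03 without library b of siYap Taz XMU. THBS1 had 5.37, 10.7 and 54.9 CPM in siYap Taz XMU, against 109, 165 and 202 CPM in siC XMU. Library c of siYap Taz XMU was high for THBS1, and the change of -2.82 (SE 0.77, adjusted p = 0.0136 by edgeR) was -4.30 without it. Without library b it was -2.47 and no longer called (adjusted p = 0.0522).

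AJUBA had 5.11, 2.88 and 1.66 CPM in siYap Taz XMU, against 35.8, 95.3 and 100 CPM in siC XMU, a log2 fold change of -4.49 (SE 0.44, adjusted p = 2.22e-05 by edgeR). FJX1 had 0.998, 0.735 and 0 CPM in siYap Taz XMU, against 4.91, 4.25 and 8.65 CPM in siC XMU. It fell by 3.04 (SE 0.54, adjusted p = 0.00104 by edgeR), with both groups already low. Library c had a count of 0, where the floor of 3 counts corresponds to 0.622 CPM. NUAK2 had 3.49, 5.05 and 9.12 CPM in siYap Taz XMU, against 10.3, 12.9 and 13.9 CPM in siC XMU. The siYap Taz XMU libraries lie wholly lower, as for 25.9% of genes tested. The fall of 1.12 (SE 0.32, adjusted p = 0.0166 by edgeR) was lost without library c of siC XMU (adjusted p = 0.0571), without library a (0.0504) or b (0.0539) of siYap Taz XMU, and in a fit of the compared groups only (0.0995).

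CRIM1 had 27.6, 28.7 and 54.7 CPM in siYap Taz XMU, against 63.6, 78.7 and 79.0 CPM in siC XMU. The knocked-down libraries were all lower, as for 25.9% of genes tested, by -1.01 (SE 0.28, adjusted p = 0.0144 by edgeR). That call was lost without library a (adjusted p = 0.0531) or b (0.0527) of siYap Taz XMU and with the compared groups only (0.0517), and the change was -1.39 without library c. ARHGAP29 had 40.2, 25.2 and 26.7 CPM in siYap Taz XMU, against 36.2, 97.1 and 109 CPM in siC XMU. Library a of siC XMU lies below library a of siYap Taz XMU, so the groups overlap although the change of -1.39 (SE 0.35, adjusted p = 0.00826 by edgeR) was called in all 21 alternative fits. AXL had 25.0, 22.4 and 55.7 CPM in siYap Taz XMU, against 50.1, 53.1 and 76.4 CPM in siC XMU. Its change of -0.82 (SE 0.43, adjusted p = 0.155 by edgeR) was not called, and without library c it was -1.34 and called (adjusted p = 0.0285). With the replicate letter as a block, AXL was also called (adjusted p = 0.0196). ANKRD1 had 0, 4 and 11 counts in siYap Taz XMU, against 0, 12 and 0 counts in siC XMU. Its highest level, 2.28 CPM, was in library c of siYap Taz XMU, the library of lowest depth.

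**Figure D4:**
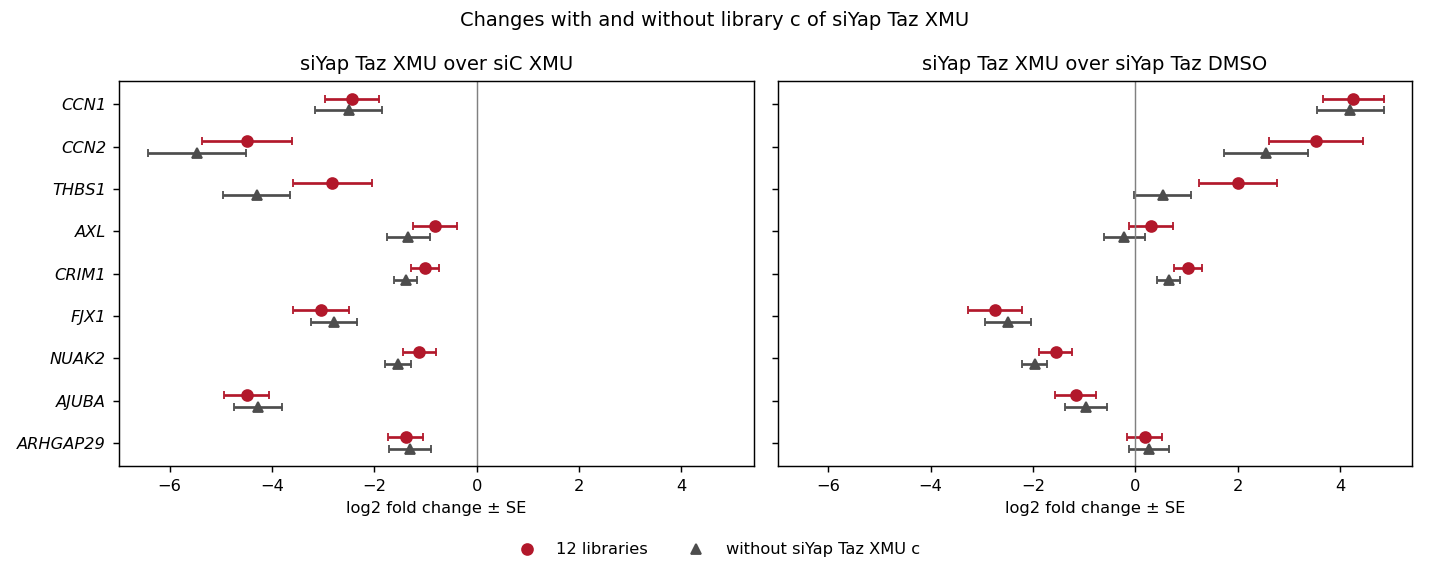
Log2 fold changes (x axis, ± SE) of 9 target genes with all 12 libraries (red circles) and without library c of siYap Taz XMU (grey triangles), for siYap Taz XMU over siC XMU and for siYap Taz XMU over siYap Taz DMSO. CCN1 hardly moves, while THBS1 shifts from -2.82 to -4.30 in the first panel and from 2.00 to 0.53 in the second.

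XMU-MP1 in cells with control siRNA raised CCN2 and lowered FJX1, and none of the other 8 target genes was called, where 4% of all genes tested were called higher and 5.26% lower. CCN2 rose 27.6-fold and FJX1 fell 8.26-fold, so within 6 h genes of the same target list moved in opposite directions. The median log2 fold change of the 10 genes was -0.30, against -0.02 for all genes. This comparison and the knockdown in DMSO share the siC DMSO libraries.

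The CCN2 values of the siC XMU libraries, 51.5, 219 and 261 CPM, all lie above the 4.39, 6.43 and 8.43 CPM of siC DMSO, with a log2 fold change of 4.79 (SE 0.88, adjusted p = 0.00672 by edgeR). Within the letters a, b and c the ratio of siC XMU to siC DMSO was 11.7, 34.2 and 31.0. FJX1 had 4.91, 4.25 and 8.65 CPM in siC XMU, against 52.3, 46.5 and 48.5 CPM in siC DMSO (log2 -3.05, SE 0.50, adjusted p = 0.0038 by edgeR). Both calls held in all 21 alternative fits. The relative of CCN2, CCN1, was higher in all 3 siC XMU libraries, with ratios of 2.03, 3.73 and 3.66 within the letters. Its log2 fold change of 1.67 (SE 0.52, adjusted p = 0.067 by edgeR) was not called. In 6 of the 21 alternative fits it was, among them those with the compared groups only (adjusted p = 0.00667), with DESeq2 (0.012), with voom (0.0187) and without library a (0.015) or b (0.0454) of siYap Taz XMU.

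THBS1 lay lower in all 3 siC XMU libraries, at 109, 165 and 202 CPM, against 396, 355 and 507 CPM in siC DMSO. The difference of -1.40 (SE 0.72, adjusted p = 0.271 by edgeR) was not called, but it was in 3 alternative fits, the compared groups only (0.00822), voom (0.0129) and log2(FPKM + 1) (0.0394). NUAK2 had values below those of siC DMSO in all 3 libraries too, with a difference of -0.31 (SE 0.31). Libraries lay wholly below in 22.1% of all genes and wholly above in 18.6%. AJUBA (-0.52, SE 0.37), AXL (-0.29, SE 0.42) and CRIM1 (-0.08, SE 0.27) overlapped between the groups. ANKRD1 had 0, 12 and 0 counts in siC XMU, against 0, 27 and 12 counts in siC DMSO. ARHGAP29 differed by 0.77 (SE 0.34, adjusted p = 0.2 by edgeR), and by 1.13 without library a of siC XMU, where it was called (adjusted p = 0.0223). That library was the lowest of its group for 8 of the 10 target genes, all but FJX1 and ANKRD1, and had ribosomal RNA at 2.52% of counts, against 1.21 and 1.02% in libraries b and c. The part of this share in the results was not tested. YAP1 itself was at -0.59 (SE 0.21, adjusted p = 0.106 by edgeR) and WWTR1 at 0.84 (SE 0.44, adjusted p = 0.278 by edgeR), neither called.

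XMU-MP1 after the knockdown raised 3 of the 10 target genes, CCN1, CCN2 and CRIM1, and lowered FJX1 and NUAK2, where 4.19% of all genes tested were called higher and 7.92% lower. CCN1 rose 19.2-fold while YAP1 and WWTR1 were low in these libraries. The median log2 fold change of the 10 genes was 0.67, the same with ANKRD1 at its bound and 0.30 without it, against 0.02 for all genes. Without library c of siYap Taz XMU, 1 target gene was called higher and 2 lower, where 1277 and 1608 of 19211 genes tested were. Without library b or c of siYap Taz DMSO 1 target gene was called higher, where 445 of 19374 and 372 of 19223 genes were. Without library a of siYap Taz XMU 4 were, where 628 of 19071 genes were.

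CCN1 had 11.0, 63.0 and 42.5 CPM in siYap Taz XMU, against 2.54, 1.08 and 2.48 CPM in siYap Taz DMSO, with a log2 fold change of 4.26 (SE 0.59, adjusted p = 0.00103 by edgeR). The groups lie wholly apart, as in 10.5% of genes tested, and the call held in all 21 alternative fits, at 4.20 without library c of siYap Taz XMU and 3.67 without its library b. The level reached, 38.8 ± 26.2 CPM in siYap Taz XMU, compares with 66.1 ± 8.04 CPM in siC DMSO (SD, n = 3 each), and library b of siYap Taz XMU lies above the 61.3 CPM of the lowest siC DMSO library. CCN2 had 0.968, 6.94 and 18.0 CPM in siYap Taz XMU, against 1.08, 0.503 and 0.562 CPM in siYap Taz DMSO. The groups overlap, since library a of siYap Taz XMU did not rise, and the ratios within the letters were 0.893, 13.8 and 32.0. The log2 fold change of CCN2 was 3.53 (SE 0.91, adjusted p = 0.0264 by edgeR). The CCN2 call held in 13 of 21 alternative fits. Without library c of siYap Taz XMU the change was 2.56 and not called (adjusted p = 0.0624 by edgeR), and without library a it was 4.12. The call was also lost without library a, b or c of siYap Taz DMSO (0.0514, 0.0981 and 0.104) and with voom (0.373). It was lost as well with the compared groups only (0.0832), on log2(FPKM + 0.1) (0.0744) and on log2(FPKM + 1) (0.205).

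CRIM1 rose by 1.03 (SE 0.28, adjusted p = 0.0333 by edgeR), with 27.6, 28.7 and 54.7 CPM in siYap Taz XMU, against 21.5, 20.2 and 12 CPM in siYap Taz DMSO. The call held in 8 of 21 alternative fits. It was lost in 9 of the 12 fits without 1 library (adjusted p 0.0502 to 0.124, with a log2 fold change of 0.65 and adjusted p = 0.0714 without library c of siYap Taz XMU) and with the replicate letter as a block (0.0608). THBS1 had a log2 fold change of 2.00 (SE 0.76, adjusted p = 0.116 by edgeR), 0.53 without library c and 2.49 without library a of siYap Taz XMU, where it was called (adjusted p = 0.0442). Library c was the highest of siYap Taz XMU for 6 of the 10 target genes, CCN2, ANKRD1, THBS1, AXL, CRIM1 and NUAK2. Of the 5 fibroblast markers, COL1A2 (3.58 FPKM), COL1A1 (6.19 FPKM), DCN (2.25 FPKM) and PDGFRB (0.116 FPKM) were also highest of the group there, while LUM had 0 counts. Of the leukocyte markers, PTPRC was highest there (0.411 FPKM) and CD14 lowest (9.19 FPKM). Among the endothelial markers, PECAM1 was highest there (0.625 FPKM, against 0.567 FPKM in library b), while CDH5 and VWF had 0 counts. The part of other cell types in these values was not tested.

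FJX1 fell again with XMU-MP1, with 0.998, 0.735 and 0 CPM in siYap Taz XMU, against 6.63, 2.61 and 5.29 CPM in siYap Taz DMSO (log2 -2.75, SE 0.53, adjusted p = 0.00677 by edgeR). NUAK2 had 3.49, 5.05 and 9.12 CPM in siYap Taz XMU, against 19.6, 14.3 and 16.3 CPM in siYap Taz DMSO, a fall of 1.56 (SE 0.32, adjusted p = 0.00896 by edgeR). Both calls held in all 12 fits without 1 library and were lost with the compared groups only (adjusted p = 0.0958 for FJX1 and 0.0829 for NUAK2). AJUBA was lower in all 3 siYap Taz XMU libraries, as were 16.7% of genes tested, at -1.17 (SE 0.40, adjusted p = 0.0808 by edgeR), and was called without library a of siC XMU (0.0252) or of siYap Taz XMU (0.0364). AXL (0.30, SE 0.43) and ARHGAP29 (0.18, SE 0.34) overlapped between the groups. ANKRD1 had 0, 4 and 11 counts in siYap Taz XMU, against 0 counts in all 3 siYap Taz DMSO libraries.

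Whether XMU-MP1 acted differently after the knockdown was tested as the interaction, its effect after the knockdown minus that with control siRNA. The knockdown left some YAP1 and WWTR1 RNA, and protein was not part of these data. The groups thus do not compare cells with and without YAP and TAZ. By edgeR's quasi-likelihood test 0 of the 10 target genes were called, where 0.86% of all genes were called higher and 1.73% lower, and 5 of the 10 had an unadjusted p under 0.05, against 18.3% of all genes. These 5 were CCN1, THBS1, NUAK2, CRIM1 and ANKRD1, the last with too few counts for a fold. CCN1 had an interaction of 2.60 (SE 0.74, adjusted p = 0.0843 by edgeR), with the XMU-MP1 effect at 4.26 after the knockdown and 1.67 with control siRNA. THBS1 had 3.40 (SE 1.05, adjusted p = 0.106 by edgeR), from 2.00 after the knockdown and -1.40 with control siRNA. NUAK2 had -1.24 (SE 0.44, adjusted p = 0.156 by edgeR) and CRIM1 1.11 (SE 0.39, adjusted p = 0.152 by edgeR). DESeq2 called CCN1 (2.67, adjusted p = 0.00667) and THBS1 (3.58, adjusted p = 0.0276), and voom called NUAK2 (-1.49, adjusted p = 0.0302). DESeq2 called 5.1% of all genes higher and 5.42% lower. Leaving out library a of siYap Taz XMU made CCN1 (3.05, adjusted p = 0.0152 by edgeR) and THBS1 (3.90, adjusted p = 0.046 by edgeR) pass, and leaving out library c made NUAK2 pass (-1.66, adjusted p = 0.0217 by edgeR). CCN2 (-1.26, SE 1.16, adjusted p = 0.624 by edgeR) and FJX1 (0.30, SE 0.70, adjusted p = 0.888 by edgeR) did not pass. Nor did AXL (0.59, SE 0.60), AJUBA (-0.66, SE 0.54) and ARHGAP29 (-0.59, SE 0.48), and the SEs of these 5 genes leave room for differences in either direction.

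Another 15 genes belong, with several of these targets, to a published YAP/TAZ signature. After the knockdown in DMSO 10 of the 15 fell and 0 rose, where 16% of all genes fell and 16.1% rose, with a median log2 fold change of -1.52. Of these 10 calls, RBMS3 held in 11 of 21 alternative fits, F3 in 19 and TGFB2 in 20, where leaving out library a of siYap Taz DMSO gave TGFB2 an adjusted p of 0.0516 by edgeR. The largest falls were in TGFB2, a growth factor (-4.41, SE 1.19, adjusted p = 0.0135 by edgeR), CCDC80, a secreted matrix-binding protein (-3.98, SE 0.57), and AMOTL2, an angiomotin that binds YAP (-3.07, SE 0.37). After the knockdown in XMU-MP1 7 fell and 0 rose, where 18.6% of all genes fell and 17.7% rose, with a median of -1.02, led by the transcription factor FOXF2 (-4.34, SE 0.61), AMOTL2 (-4.05, SE 0.39) and CCDC80 (-3.91, SE 0.57). The calls of DOCK5 and MYOF were lost in 16 and 10 of 21 alternative fits. XMU-MP1 with control siRNA raised the kinase gene LATS2 (0.91, SE 0.26, adjusted p = 0.0484 by edgeR) and lowered F3, the gene of tissue factor (-2.05, SE 0.47, adjusted p = 0.0201 by edgeR), where 4% of all genes were called higher and 5.26% lower, with a median of -0.17. The LATS2 call held in 3 and the F3 call in 8 of the 12 fits without 1 library, with adjusted p of up to 0.202 for LATS2 and 0.0975 for F3. XMU-MP1 after the knockdown raised IGFBP3, which binds insulin-like growth factors (2.75, SE 0.57, adjusted p = 0.00882 by edgeR), and lowered FOXF2 (-3.06, SE 0.59, adjusted p = 0.00662 by edgeR), where 4.19% of all genes were called higher and 7.92% lower, with a median of -0.11. Both calls held in all 12 fits without 1 library and were lost with the compared groups only. For the interaction 0 of the 15 were called by edgeR and 4 had an unadjusted p under 0.05, against 18.3% of all genes, while DESeq2 called 2 higher and 1 lower, against 5.1 and 5.42% of all genes. In the gene annotation of the authors' deposited table, 3 of the 10 targets, AJUBA, CCN2 and FJX1, carry the KEGG Hippo pathway, against 2.07% of genes tested.

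The 10 genes did not share 1 profile over the 12 libraries. The likeness of 2 genes was measured as the root mean square difference of their centred log2 CPM, where 0 means the same profile. The closest pair among the 10 was AXL and CRIM1 at 0.62, and CCN1 and CCN2 were 1.28 apart. A flat profile would lie 0.78 from AXL and 0.93 from CRIM1, but 2.55 from CCN1 and 2.94 from CCN2. The measure thus favours genes of small range, and relative to their range CCN1 and CCN2 were the more alike. Of 11383 other genes the closest to CCN1 were FAM83D (1.01) and JPH1 (1.06), and to CCN2 PREX1 (1.17) and PEG10 (1.46). On this unscaled measure the wide swings of CCN1 and CCN2 had no close match. THBS1 was nearest NRG1 (0.76) and PLAC8 (0.78), and FJX1 nearest DKK1 (0.65) and TRIM6 (0.72). AJUBA was nearest AURKA (0.51) and YAP1 itself (0.54). Genes of small range had close neighbours, MSN (0.23) and ANPEP (0.24) for AXL, MAP3K21 (0.24) and R3HDM1 (0.29) for CRIM1, AMOTL1 (0.23) and KLF12 (0.26) for NUAK2, and TBC1D24 (0.30) and CACHD1 (0.32) for ARHGAP29. ANKRD1, with SORD2P (1.14) and GNAL (1.15), is close to the floor, so its neighbours rest on few counts. These values describe the same 12 libraries that gave the group differences.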

How the data were processed

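RNA sequencing of 12 MCF10A libraries, 3 in each of 4 groups, was analysed from the deposited table of 46931 genes. The authors deposited whole-number values per gene, which the file headers name as counts. The headers do not say whether these values were scaled. Among the target and marker genes the smallest value above 0 was 4, so a count may stand for less than a whole fragment. In that case the depths and low counts given here overstate the number of fragments. The authors also deposited FPKM (fragments per kilobase of transcript, scaled to depth), listed as 0.0001 wherever the count is 0. The submitters' processing notes name cutadapt, FastQC, HISAT2, StringTie, edgeR and GRCh38.p13, without versions. Roles, settings and strand use in counting are not given in the sources used here. All 24 value columns were used.

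From the counts, filterByExpr kept 18143 genes and edgeR 4.0.16 (R 4.3.3) fitted 4 group means after TMM scaling, with 8 residual degrees of freedom and a common dispersion of 0.232. Quasi-likelihood tests were two-sided, and Benjamini-Hochberg adjustment ran over all genes tested. Fold changes use a prior count of 0.125. The SE is the size of the log2 fold change over the square root of F. CPM levels are TMM-scaled. The model was tested on simulated data. Alternatives were other filters, RLE factors, DESeq2 1.42.0, limma 3.58.1 (voom, and limma-trend on log2 FPKM), only the groups compared, a replicate block and leaving out each library.

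Depth was 8243351 to 67953633 counts per library. Floors of 3 counts cover counting error only and treat 1 count as 1 fragment. Among the target and marker genes the smallest count above 0 was 4, so the floors may be too low. The labels do not say whether libraries a, b and c come from separate cultures, so p-values reflect only the spread among these samples, which may be technical. The members and lists were chosen with earlier results of these data known. All 10 members are named in every comparison, ANKRD1 by its counts. Of the other 15 signature genes, up to 3 called in each direction are named. Likeness names the 2 closest genes with a symbol not starting with LOC and at least 5 CPM in their highest group.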

Additional observations from a re-analysis of the deposited data

How the results depend on the processing

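Of the calls on target genes, CCN1, THBS1, CRIM1, FJX1 and AJUBA after the knockdown in DMSO, CCN1, CCN2, FJX1, AJUBA and ARHGAP29 after the knockdown in XMU-MP1, CCN2 and FJX1 with XMU-MP1 and control siRNA, and CCN1 with XMU-MP1 after the knockdown held in all 21 alternative fits. For XMU-MP1 with control siRNA, 2 target genes were higher with the compared groups only, DESeq2, no filter and voom, and 2 were lower with the compared groups only, log2(FPKM + 1) and voom. For XMU-MP1 after the knockdown, 1 was higher with the compared groups only and on both FPKM scales, and 0 were lower with the compared groups only. For the interaction, 2 were higher with DESeq2 and 1 on log2(FPKM + 1), and 1 was lower with voom and on both FPKM scales. The cause was not tested. Leaving out 1 library gave 5 to 8 lower after the knockdown in DMSO, 5 to 9 lower after the knockdown in XMU-MP1, 1 to 2 higher with XMU-MP1 and control siRNA, 1 to 4 higher and 2 to 3 lower with XMU-MP1 after the knockdown, and 0 to 2 higher and 0 to 1 lower for the interaction. ANKRD1 has no fold and is left out here. Among the other 9 genes, YAP1 and WWTR1, signs turned in these changes, none of them called: NUAK2 after the knockdown in DMSO (-0.07 on log2(FPKM + 0.1), -0.06 on log2(FPKM + 1), -0.01 to 0.22 leaving out 1 library), AXL (-0.11, -0.10, -0.22 to 0.63) and ARHGAP29 (-0.24, -0.17, -0.07 to 0.30) with XMU-MP1 after the knockdown, YAP1 in the interaction (0.02 on log2(FPKM + 1)), and, leaving out 1 library, AXL (-0.54 to 0.07) and CRIM1 (-0.13 to 0.03) with XMU-MP1 and control siRNA and FJX1 in the interaction (-0.07 to 0.67).

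Over all genes, the FPKM scales and DESeq2 shifted the median log2 fold change of the knockdown in XMU-MP1, from 0.04 to -0.43 on log2(FPKM + 0.1), -0.19 on log2(FPKM + 1), 0.20 with DESeq2 and 0.13 with RLE factors. The genes called higher and lower there were 1666 and 5441 on log2(FPKM + 1) and 1717 and 5387 on log2(FPKM + 0.1), against 3219 and 3381 in edgeR, and 1918 and 3267, against 2929 and 2897, after the knockdown in DMSO on log2(FPKM + 0.1). For XMU-MP1 with control siRNA, 725 and 955 became 1943 and 2101 with the compared groups only, 1315 and 1774 with DESeq2, 1407 and 1907 with voom, 314 and 772 on log2(FPKM + 0.1) and 436 and 1203 on log2(FPKM + 1). For XMU-MP1 after the knockdown, 761 and 1437 became 322 and 544 with the compared groups only, 1760 and 2016 with DESeq2, 641 and 2661 on log2(FPKM + 0.1) and 620 and 2794 on log2(FPKM + 1). For the interaction, 156 and 314 became 886 and 942 with DESeq2, 422 and 714 with voom and 252 and 463 on log2(FPKM + 1). Of the 15 other signature genes, 11 fell after the knockdown in XMU-MP1 on log2(FPKM + 0.1), and with XMU-MP1 and control siRNA 0 to 4 were higher and 1 to 4 lower in the fits with all libraries of the compared groups, and 0 to 1 higher and 0 to 2 lower leaving out 1 library. Leaving out 1 library gave, over all genes, 260 to 1134 higher and 369 to 1527 lower for XMU-MP1 with control siRNA, 372 to 1277 and 787 to 1608 for XMU-MP1 after the knockdown, and 32 to 398 and 54 to 608 for the interaction.

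With the replicate letter as a replicate block, 9 target genes were lower after the knockdown in XMU-MP1 and 2 were higher with XMU-MP1 after the knockdown. Of 18 same-letter pairs, 2 had a correlation of deviations over 0.1 (range -0.022 to 0.17). These correlations were low, yet 11 of 12 libraries had their highest correlation with a library of the same letter. The labels do not say whether the letters pair the libraries, and the main fit does not use them.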
